A study of Mus musculus with 12 samples.

Results

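The genes described here are 39 genes of the type I interferon response, taken by symbol from a table of read counts for 55573 mouse genes. They were measured by RNA-sequencing in tumourspheres, floating spheres that enrich for tumour-initiating cells, of 3 spindloid mammary tumour cell lines, A1005, A1129 and A1471, which come from the MMTV-Metmt;Trp53fl/+;Cre mouse model. In that model the mammary MMTV promoter drives a mutant Met receptor and 1 Trp53 allele is floxed. Every library, controls included, carries that genotype. The paper describes Trp53 loss in this model and states that its endogenous Met locus becomes amplified. Each line was treated for 24 h with DMSO (the solvent control), Crizotinib (a Met inhibitor), PD173074 (an FGFR inhibitor) or the combination, which gives 12 libraries with 1 library per line and treatment and n = 3 lines per treatment. The labels give no further cultures of a line, so p-values measure the spread between 3 lines, not between cultures of one line. In fits with the line as a block, which takes out each line's own level, they measure how the treatment change varies over the lines.

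Type I interferons are secreted proteins that bind the receptor Ifnar1/Ifnar2, which activates the kinases Jak1 and Tyk2. These phosphorylate factors such as Stat2, which joins Irf9 to bind interferon-stimulated response elements in the promoters of antiviral genes. The same genes can be induced by Irf1 and Irf7 and by the RNA sensors of the RIG-I family, and many of them stay at a low level in unstimulated cells.

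All 39 members passed the filter on low counts and were tested among 13836 genes. Some, such as Oas2 and Ifit3b, passed it through PD173074 and combination libraries alone, so their calls as higher than DMSO or Crizotinib are weak support. The 12 libraries held 13031492 to 17750476 counts, and no pair of libraries was identical. Levels are given as counts or as CPM, counts scaled to a common library total with the TMM factors, which correct for library composition. The lines expressed the mesenchymal marker Vim at 30314 to 49234 counts, and Krt5, a basal keratin, had 0 counts in all 12 libraries. Krt5 does not stand for every epithelial marker. Of 9 mesenchymal and epithelial markers listed, 5 passed the filter, more than the mesenchymal ones, so some epithelial markers were read. Of 13 immune and endothelial markers, 4 had no count in any library and 11 stayed under 20 counts. The macrophage gene Csf1r had 0 to 5 counts, Adgre1 had 0 to 1 and the T cell gene Cd3e had 0 to 2. The exceptions were Cd68, with 62 to 439 counts, and Ptprc, a leukocyte phosphatase, with 174 to 339 counts in A1005 and 0 to 2 in the other lines. The summed marker counts, not scaled for depth, are given for DMSO, Crizotinib, PD173074 and the combination. They were 408, 497, 583 and 765 in A1005, 78, 93, 80 and 180 in A1129 and 80, 90, 66 and 111 in A1471. The A1005 library held 13031492 counts with DMSO and 17750476 with the combination. Without Cd68 and Ptprc the sums were 2 to 25 counts in every library. The part of Cd68 and Ptprc in the results below was not tested. In bulk RNA, fewer cells of a type and less RNA per cell cannot be told apart.

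The promoters of several members carry the response element in its textbook form. A promoter, from 250 bases before to 50 after the annotated start, was found in the RefSeq table (build GRCm38.p6, the same build as mm10) for 29 of the 39 members. The core, which reads GAAA, any 2 bases and GAAA and was searched on both strands, was present in 15 of these 29 members (51.7%) and in 3.99% of the 27025 genes with a promoter. The STAT dimer site TTCNNNGAA, which reads the same on either strand, was present in 8 members (27.6%) and in 9.55% of all genes. The stretches that follow lie upstream of the start and are shown because their genes rose with the combination (Ifit1, Ifit3), encode the ubiquitin-like modifier of the response (Isg15), or hold paired cores close to the start with larger and smaller changes (Ddx60, Oas1a), while Irf1 holds a STAT dimer site and no response element core in this window. Capitals mark the core, or for Irf1 the STAT dimer site, and each sequence runs 5′ to 3′ on the strand of its gene.
Ifit1 (chr19:34640769-34640888, plus strand): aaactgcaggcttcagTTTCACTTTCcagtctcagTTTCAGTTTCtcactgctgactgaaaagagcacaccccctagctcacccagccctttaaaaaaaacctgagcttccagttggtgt
Ifit3 (chr19:34583349-34583528, plus strand): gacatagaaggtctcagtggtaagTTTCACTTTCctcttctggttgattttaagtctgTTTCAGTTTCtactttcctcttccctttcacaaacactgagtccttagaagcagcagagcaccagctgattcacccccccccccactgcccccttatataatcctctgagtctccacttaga
Isg15 (chr4:156200819-156200938, minus strand): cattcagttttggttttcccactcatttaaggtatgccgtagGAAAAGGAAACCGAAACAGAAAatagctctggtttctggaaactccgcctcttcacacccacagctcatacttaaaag
Ddx60 (chr8:61927967-61928086, plus strand): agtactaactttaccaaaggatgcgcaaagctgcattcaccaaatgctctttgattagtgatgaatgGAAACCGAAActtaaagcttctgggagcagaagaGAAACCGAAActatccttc
Oas1a (chr5:120907526-120907645, minus strand): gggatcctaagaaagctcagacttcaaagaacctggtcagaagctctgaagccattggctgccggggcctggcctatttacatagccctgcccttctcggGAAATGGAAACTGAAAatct
Irf1 (chr11:53769894-53770013, plus strand): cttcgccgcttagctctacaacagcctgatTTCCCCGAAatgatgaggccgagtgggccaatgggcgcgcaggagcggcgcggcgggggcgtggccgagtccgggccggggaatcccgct

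Ifit1 and Ifit3 share the 2 cores TTTCACTTTC and TTTCAGTTTC on the reverse strand, and the Isg15 stretch holds 3 cores that overlap each other. A match is a description of the letters and not a bound site. Among members, the median log2 fold change in the combination was 1.53 with the core and 1.62 without it.

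**Figure D1:**
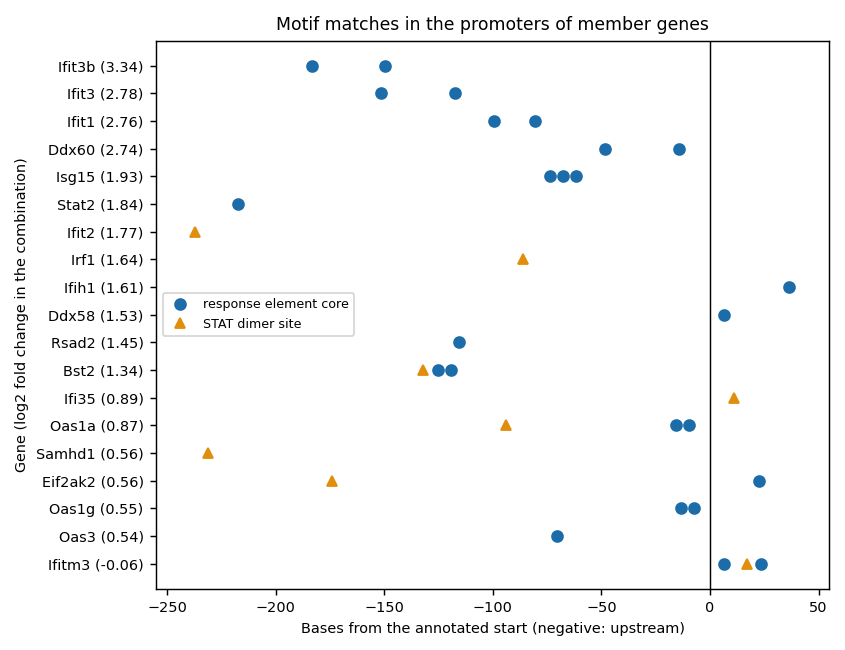
Position of each motif match in the promoters of the 19 members that hold one, in bases from the annotated start (x axis, negative upstream), with the gene and its log2 fold change in the combination against DMSO on the y axis. Circles are response element cores and triangles STAT dimer sites. Ifit3b (3.34), at the top, and Ifitm3 (-0.06), at the bottom, both hold cores.

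In DMSO the members spanned a wide range of levels. Per kilobase of exon, Ifitm3, a membrane protein that blocks virus entry, stood highest at a mean of 311 CPM per kb, followed by the virion tether Bst2 at 26.7 and the ubiquitin ligase Trim25 at 15.1, and Oas2 stood lowest at 0.0458. Of the 39 members, 8 had no count in at least 1 library, and no member stayed at or under 20 counts in every library. With DMSO, A1005 had the highest levels for many members. Its DMSO library was at least 2-fold above that of A1471 for 23 members (15.8% of all genes tested) and at least 2-fold below it for 1 (8.61%), with a median difference of 1.45 in log2 CPM. By the same measure it was above A1129 for 17 members (14.7% of all genes) and below it for 5 (10.8%). The summed level of the 39 members was 752 CPM in A1005, 725 in A1129 and 556 in A1471 with DMSO, and 1596, 1026 and 1526 CPM with the combination. Ifitm3 weighed heavily in these sums, with a mean of 211 CPM with DMSO and 202 with the combination. In A1129 Ifitm3 was 2.32-fold lower with the combination, so the sums there do not show the change of the other members.

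The combination had the largest median change of the members over the 3 lines, though not in A1129. Against DMSO, 10 of 39 members rose and 0 fell in the unpaired fit (edgeR's quasi-likelihood test, Benjamini-Hochberg adjusted p under 0.05), where 6.10% of all genes tested rose and 8.28% fell. DESeq2 called 18 members higher (11.1% of all genes). The median log2 fold change of the members was 1.65, against 0.02 for all genes, and 37 of 39 members were above 0. The same cell line pairs the libraries across treatments, and with the line as a block 28 members rose and 1, Oasl1, fell, where 28.6% of all genes rose and 26.2% fell. In all 3 lines the level was above DMSO for 23 members (33.9% of all genes), and for 18 members the lowest combination library lay above the highest DMSO library (13.8% of all genes). The heat map of changes shows each member in each line.

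**Figure D2:**
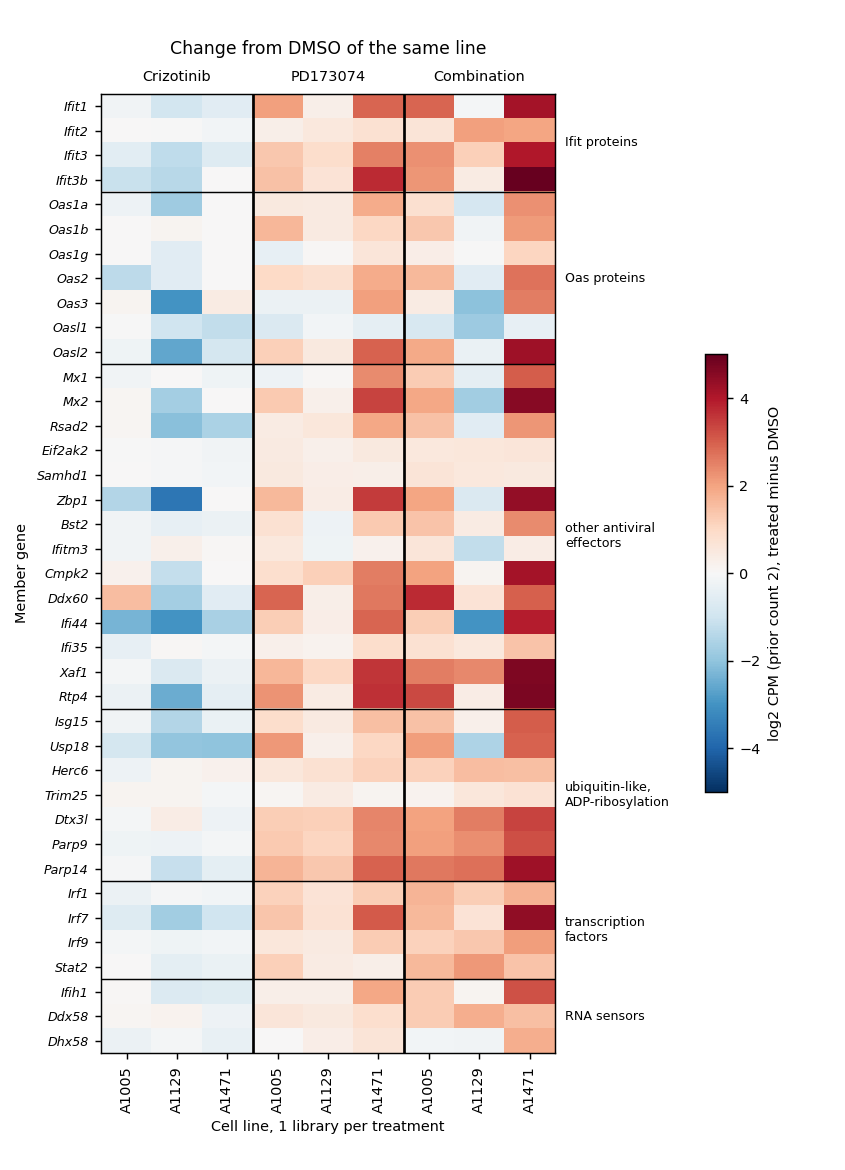
Change of the 39 members from DMSO of the same line with Crizotinib, PD173074 and the combination (columns, 1 library each), in log2 CPM with a prior count of 2, with members in rows grouped by function. The combination columns are mostly red in A1005 and A1471, Oasl1 excepted, and mixed in A1129, and the deepest blue cells lie in the A1129 columns, -3.61 for Zbp1 with Crizotinib and -3.00 for Ifi44 with the combination.

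The Ifit proteins bind viral RNA and block its translation. Ifit2 had 13.8, 20.1 and 16.7 CPM with DMSO in A1005, A1129 and A1471, then 14.0, 19.7 and 15.1 with Crizotinib, 17.0, 29.1 and 28.4 with PD173074, and 21.9, 84.3 and 66.7 with the combination. The combination libraries were all above the DMSO libraries, by least in A1005, and Ifit2 rose by a log2 fold change of 1.77 ± 0.44 (SE, adjusted p = 0.0251 by edgeR). Ifit3 was read rarely, with 12, 15 and 6 counts with DMSO, 9, 5 and 3 with Crizotinib, 43, 27 and 42 with PD173074 and 92, 39 and 115 with the combination, and its change was 2.78 ± 0.59 (adjusted p = 0.0131). Ifit1 had 25, 64 and 27 counts with DMSO, 25, 33 and 17 with Crizotinib, 140, 72 and 212 with PD173074 and 277, 63 and 467 with the combination. It rose by 2.76 ± 0.74 (adjusted p = 0.0352), yet in A1129 its combination and DMSO libraries were level. Ifit3b had 2, 6 and 0 counts with DMSO, 0, 1 and 0 with Crizotinib, 11, 10 and 23 with PD173074 and 22, 9 and 54 with the combination, and missed the threshold unpaired (3.34 ± 1.16, adjusted p = 0.0862) but passed it with the block (adjusted p = 0.0094). Ifit3 and Ifit3b lie next to each other on chromosome 19 (34583531 to 34588731 and 34607970 to 34613401). They share 51.2% and 44.5% of the 50-base stretches of their transcripts, so the counting could split reads between them.

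Among the ubiquitin-like and ADP-ribosylation genes, the neighbours Parp14, Dtx3l and Parp9 on chromosome 16 stood out. Parp9 and Dtx3l, which form a complex of a macrodomain protein and a ubiquitin ligase, lie head to head at 35938470 to 35972605 and 35926511 to 35939151, and Parp14, a mono-ADP-ribosyltransferase, lies beside them at 35832874 to 35871544. Parp14 had 12.3, 5.52 and 4.42 CPM with DMSO, 11.9, 2.37 and 3.09 with Crizotinib, 39.8, 14.3 and 35.5 with PD173074 and 77.8, 38.0 and 86.5 with the combination. It rose by 3.18 ± 0.72 (adjusted p = 0.0178 by edgeR), from a mean of 7.42 ± 4.28 to 67.4 ± 25.8 CPM (SD, n = 3). Parp9 had 25.7, 9.13 and 7.38 CPM with DMSO, 22, 7.72 and 6.89 with Crizotinib, 62.9, 19.4 and 39.1 with PD173074 and 106, 46.7 and 70.2 with the combination, and rose by 2.40 ± 0.67 (adjusted p = 0.0388). Dtx3l had 23.2, 6.37 and 5.80 CPM with DMSO, 21.4, 8.38 and 4.81 with Crizotinib, 53.9, 14.8 and 32.1 with PD173074 and 94.9, 38.7 and 61.8 with the combination, and its change of 2.47 ± 0.75 missed the threshold unpaired (adjusted p = 0.0552) and passed it with the block (adjusted p = 0.000108). For all 3 genes every combination library was above every DMSO library (13.8% of all genes). Parp9 and Dtx3l overlap on opposite strands over 458 exonic bases, 9.40% and 8% of their exon lengths, and the strand setting of the counting is not stated.

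The other genes of that group behaved less evenly. Isg15, the ubiquitin-like modifier itself, had 91, 26 and 36 counts with DMSO, 91, 8 and 27 with Crizotinib, 217, 33 and 103 with PD173074 and 358, 33 and 280 with the combination. Its change was 1.93 ± 1.07 (adjusted p = 0.271 unpaired, 0.00516 with the block). Usp18, which removes Isg15 from proteins and dampens the receptor, had 3, 18 and 6 counts with DMSO, 1, 3 and 0 with Crizotinib, 25, 20 and 14 with PD173074 and 26, 5 and 54 with the combination. The combination was thus above DMSO in A1005 and A1471 and below it in A1129, and Usp18 passed in neither fit (adjusted p = 0.149 with the block). Herc6, the ligase that attaches Isg15 in mice, was above DMSO in all 3 lines (1.34 ± 0.41, adjusted p = 0.0553 unpaired, 6.0e-05 with the block). Trim25 was among the 3 members with the smallest changes, with 82.1, 77.1 and 102 CPM with DMSO, 89.5, 85.5 and 94.7 with Crizotinib, 87.0, 101 and 112 with PD173074 and 93.2, 114 and 166 with the combination (0.52 ± 0.21, adjusted p = 0.135 unpaired, 0.00866 with the block).

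Of the 14 other antiviral effectors, 3 rose with the combination unpaired (Samhd1, Xaf1 and Rtp4), where 6.10% of all genes rose. With the block 10 rose, where 28.6% of all genes rose. Samhd1, which depletes the nucleotides a virus needs, changed little but evenly, with 81.4, 95.5 and 94.7 CPM with DMSO, 82.6, 91.2 and 85.7 with Crizotinib, 113, 121 and 115 with PD173074 and 127, 139 and 134 with the combination. Its rise was 0.56 ± 0.11 (adjusted p = 0.0102 by edgeR). Xaf1, a partner of the apoptosis inhibitor Xiap, had 7.56, 3.35 and 1.79 CPM with DMSO, 7.03, 1.98 and 1.44 with Crizotinib, 23.9, 6.93 and 22.9 with PD173074 and 45.6, 18.1 and 48.5 with the combination, and rose by 3.14 ± 0.80 (adjusted p = 0.0290). Rtp4 had the largest change in the unpaired fit, 3.40 ± 0.98 (adjusted p = 0.0446), while with the block Parp14 had (3.23 ± 0.38). Rtp4 had 10, 15 and 5 counts in the DMSO libraries, 9, 1 and 3 with Crizotinib, 69, 19 and 82 with PD173074 and 160, 21 and 163 with the combination. Most of the Rtp4 difference was in A1005 and A1471, as the counts show. Ddx60, a helicase, had 1, 11 and 7 counts with DMSO, 7, 2 and 4 with Crizotinib, 24, 13 and 52 with PD173074 and 49, 20 and 64 with the combination (2.74 ± 0.86, adjusted p = 0.0611 unpaired, 0.00432 with the block). Bst2 had 17.9, 38.2 and 16.3 CPM with DMSO, 15.8, 28.9 and 13.2 with Crizotinib, 30.7, 32.3 and 40.4 with PD173074 and 48.3, 50.9 and 84.8 with the combination (1.34 ± 0.41, adjusted p = 0.0530 unpaired, 0.00507 with the block). Ifitm3, the most abundant member, had the smallest change of all. Its levels were 204, 302 and 127 CPM with DMSO, 180, 364 and 133 with Crizotinib, 292, 261 and 147 with PD173074 and 311, 130 and 165 with the combination (-0.06 ± 0.48, adjusted p = 0.959). The combination was above DMSO in A1005 and A1471 and 2.32-fold below it in A1129 (exact 95% interval of the counts 2.21 to 2.45), and the fitted sign turned positive with the block and without A1129.

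The Oas proteins make oligoadenylates that activate RNase L. Of the 7 members, 0 passed the unpaired test with the combination (1 at an unadjusted p under 0.05, where 4002 of 13836 genes were). With the block 2 rose (28.6% of all genes) and 1 fell (26.2%). Oas2 (adjusted p = 0.0339) and Oasl2 (adjusted p = 0.0326) were higher and Oasl1 lower (-1.11 ± 0.41, adjusted p = 0.0419). Oas2 had 7, 1 and 0 counts with DMSO, 2, 0 and 0 with Crizotinib, 20, 3 and 5 with PD173074 and 35, 0 and 10 with the combination. It passed the filter on low counts through treated libraries alone, so its call is weak support. In A1129 no Oas gene had a higher level with the combination than with DMSO (Oas1g had 1 count in each), and 6 of 7 had a higher level in A1005 and in A1471. Oasl2 had 64, 53 and 21 counts with DMSO, 63, 7 and 10 with Crizotinib, 190, 69 and 169 with PD173074 and 337, 44 and 396 with the combination. Oas3 had 161, 22 and 9 counts with DMSO, 204, 1 and 12 with Crizotinib, 169, 16 and 42 with PD173074 and 299, 4 and 57 with the combination. Oasl1, an Oas-like protein without that activity, had 131, 22 and 5 counts with DMSO, 146, 10 and 1 with Crizotinib, 102, 18 and 3 with PD173074 and 106, 5 and 3 with the combination, and was the only member that was lower with the combination in all 3 lines. Oas1a and Oas1g share 57.6% and 45.2% of their 50-base stretches, and their split is uncertain.

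The 4 transcription factors were above DMSO with the combination in every line (33.9% of all genes). Unpaired, 1 of them passed the threshold (6.10% of all genes rose), and all 4 did with the block (28.6%). Stat2 had 8.19, 8.54 and 6.07 CPM with DMSO, 8.33, 6 and 4.81 with Crizotinib, 18.8, 11.4 and 7.54 with PD173074 and 25.5, 39.3 and 16.7 with the combination, and rose by 1.84 ± 0.41 (adjusted p = 0.0177 by edgeR). Irf9, its DNA-binding partner, had 5.77, 12.9 and 6.90 CPM with DMSO, 5.32, 10.9 and 6.25 with Crizotinib, 8.51, 17.9 and 16.8 with PD173074 and 13.2, 33.0 and 30.1 with the combination (1.58 ± 0.48, adjusted p = 0.0552 unpaired, 0.000162 with the block). Irf1 had 62.9, 34.4 and 70.2 CPM with DMSO, 50.6, 33.2 and 64.4 with Crizotinib, 138, 56.0 and 164 with PD173074 and 207, 81.4 and 233 with the combination. It missed the threshold unpaired (1.64 ± 0.50, adjusted p = 0.0553) and had the smallest adjusted p of any member with the block (2.02e-05). Irf7, which drives interferon alpha genes, had 32, 25 and 4 counts with DMSO, 23, 6 and 1 with Crizotinib, 111, 39 and 47 with PD173074 and 144, 44 and 116 with the combination (2.14 ± 1.003, adjusted p = 0.191 unpaired, 0.0117 with the block). For all 4 factors each combination library was above each DMSO library in CPM (13.8% of all genes). The margin was thin for Irf9 (13.2 against 12.9 CPM) and for Irf7 (44 counts in A1129 against 32 in A1005).

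The RNA sensors were split. Ddx58 (RIG-I) had 33.8, 27.2 and 27.3 CPM with DMSO, 36.2, 31.0 and 22.6 with Crizotinib, 51.7, 38.6 and 48.8 with PD173074 and 81.3, 96.2 and 77.6 with the combination. It rose by 1.53 ± 0.20 (adjusted p = 0.00154), the smallest adjusted p of the members unpaired, and was the member that also passed the unpaired test against PD173074. Dhx58, a regulator of the other two sensors, had 11.2, 1.84 and 1.45 CPM with DMSO, 9.08, 1.71 and 1.08 with Crizotinib, 11.4, 2.36 and 2.35 with PD173074 and 10.2, 1.63 and 5.42 with the combination (0.26 ± 1.10, adjusted p = 0.918). Its levels with the combination were above DMSO in A1471 alone. Ifih1 passed with the block only (1.61 ± 1.37 unpaired, adjusted p = 0.496, and 0.0197 with the block).

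**Figure D3:**
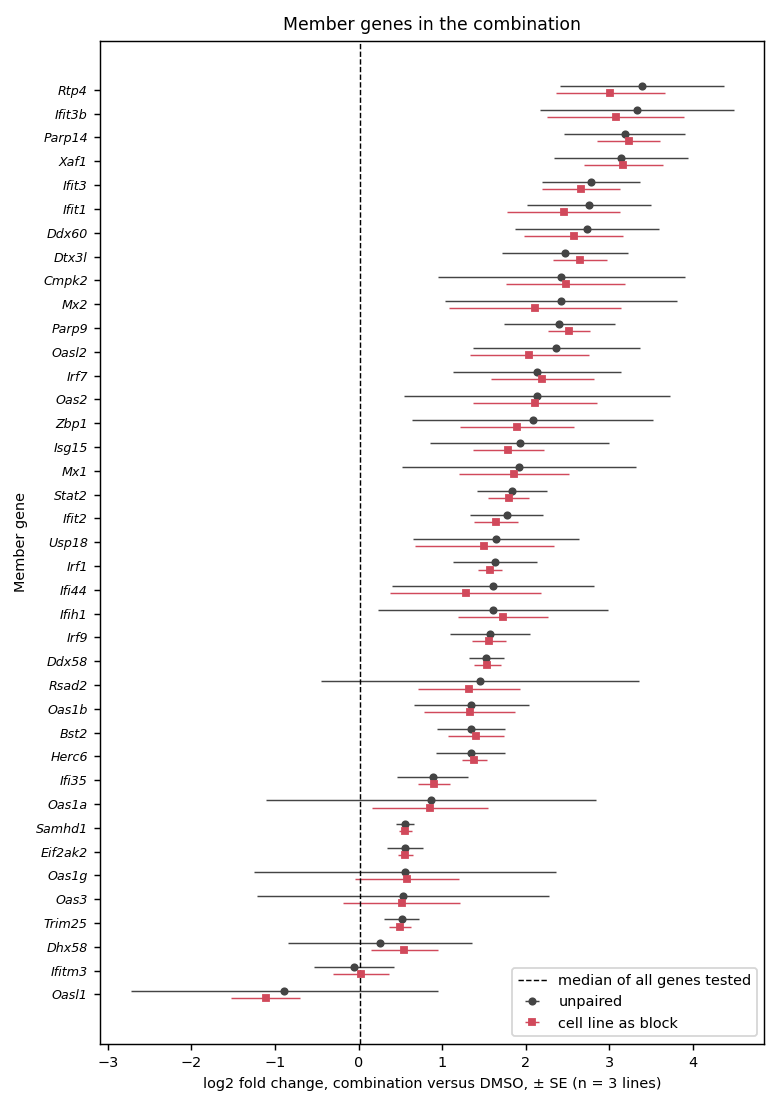
Log2 fold change (x axis) of the 39 members (y axis) in the combination against DMSO, with standard errors, n = 3 lines per treatment. Circles are the unpaired fit, squares the fit with cell line as a block, and the dashed line is the median of all genes tested (0.02). The values run from -0.89 for Oasl1 to 3.40 for Rtp4 in the unpaired fit.

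With PD173074 alone the median change of the members was above DMSO in each line, with log2 CPM differences of 1.86 for A1471, 0.87 for A1005 and 0.41 for A1129. That was less than with the combination in A1005 and A1471 but not in A1129, where the combination had a median of 0.37 and 23 of 39 members above DMSO against 35 with PD173074. The comparisons with DMSO share the same control libraries. No member passed the unpaired test, where 0% of all genes did (9 members and 307 genes had an unadjusted p under 0.05), and limma-voom also called 0 members, as did DESeq2 (0.171% of all genes). With the block 6 members rose, where 1.62% of all genes rose. They were Irf1 (1.03 ± 0.14, adjusted p = 0.00903), Parp9 (1.58 ± 0.25, adjusted p = 0.0144), Parp14 (1.997 ± 0.37, adjusted p = 0.0246), Herc6 (0.82 ± 0.15, adjusted p = 0.0248), Dtx3l (1.62 ± 0.32, adjusted p = 0.0310) and Samhd1 (0.36 ± 0.08, adjusted p = 0.0429). The median log2 fold change of the members was 1.01, while that of all genes was near 0, and 33 of 39 members were above DMSO in all 3 lines (24.4% of all genes). For 11 members the lowest PD173074 library lay above the highest DMSO library (3.35% of all genes). A1471 was the line with the largest changes, with 28 of 39 members at least 2-fold above DMSO (7.94% of all genes), followed by A1005 with 18 (4.01%) and A1129 with 5 (3.16%). No member was 2-fold lower with PD173074 in any line.

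With Crizotinib alone no member passed the test in either direction by edgeR with or without the block (0% of all genes in each), by limma-voom or by DESeq2 (0.00742% of all genes). In the unpaired edgeR fit 2 members, Ifi44 and Usp18, had an unadjusted p under 0.05, as had 18 of 13836 genes. The median log2 fold change of the members was -0.20, while that of all genes was near 0, and 33 of 39 were below 0. The difference was largest in A1129, where 16 of 39 members were at least 2-fold below DMSO (1.15% of all genes), against 4 in A1005 (1.12%) and 4 in A1471 (1.24%). There Zbp1, a sensor of Z-form nucleic acids, had 23 counts with DMSO and 0 with Crizotinib, where a count of 0 allows up to 3 counts. Ifi44 had 22 counts with DMSO and 1 with Crizotinib, and Oas3 likewise 22 and 1, a ratio of 21.9 for each with an exact 95% interval of 3.54 to 904. Oasl2 had 53 and 7 counts, a ratio of 7.54 (3.42 to 19.7), and Irf7 25 and 6, a ratio of 4.15 (1.66 to 12.4). These intervals cover counting error between 2 libraries only, and copies of a molecule made by PCR are counted more than once. In the same library pair, Irf1 had 524 and 503 counts, Eif2ak2 530 and 501, and Ddx58 414 and 470, and the interval of the ratio held 1 for each. Other members read often there did move, Ifitm3 from 4591 to 5523 counts (1.21-fold, exact 95% interval 1.16 to 1.26), Bst2 from 582 to 438 (0.756-fold, 0.666 to 0.857) and Stat2 from 130 to 91 (0.703-fold, 0.532 to 0.926). In A1005 and A1471, Ifi44 went from 20 to 3 and from 4 to 0 counts, and Usp18 from 3 to 1 and from 6 to 0. Both genes had every Crizotinib library below every DMSO library in CPM (0.846% of all genes), but by margins near the floor. For Usp18 the nearest libraries, A1129 with Crizotinib and A1005 with DMSO, had 3 counts each and differed in depth alone. For Ifi44 they had 3 counts (A1005 with Crizotinib) and 4 (A1471 with DMSO).

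Against Crizotinib, the combination raised 17 members in the unpaired fit, where 5.40% of all genes rose, and 32 with the block (27.4%), and limma-voom called 11 (5.66%). The median log2 fold change was 2.09. The 17 included Ifit3 (3.77 ± 0.62, adjusted p = 0.00429 by edgeR), Ifi44 (5.08 ± 1.46, adjusted p = 0.0467) and Usp18 (4.30 ± 1.15, adjusted p = 0.0361). Neither Ifi44 nor Usp18 passed the test of the combination against DMSO in either fit. In the order A1005, A1129 and A1471, Ifi44 had 3, 1 and 0 counts with Crizotinib and 69, 1 and 82 with the combination, so A1129 had 1 count in each. The others called against Crizotinib were Samhd1, Ddx58, Stat2, Parp14, Ifit1, Rtp4, Ifit3b, Xaf1, Ifit2, Bst2, Parp9, Ddx60, Irf9 and Irf1. Ifit3b had 0, 1 and 0 counts with Crizotinib and passed the filter on low counts through PD173074 and combination libraries alone. Ddx60, with 7, 2 and 4 counts with Crizotinib, also needed those libraries to pass. The calls of such rarely read members against Crizotinib are weak support.

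Against PD173074, the combination raised 1 member unpaired, Ddx58 (0.88 ± 0.20, adjusted p = 0.0373), where 0.838% of all genes rose, and 9 with the block (19.6% of all genes), which were Ddx58, Stat2, Ifit2, Irf9, Parp9, Irf1, Herc6, Parp14 and Dtx3l. DESeq2 called 2 (4.82% of all genes). The departure from additivity, the combination's log2 change minus those of both single inhibitors, passed for no member unpaired, where 0.00723% of all genes were called higher. At an unadjusted p under 0.05 were 3 members, all higher, and 1250 of 13836 genes, 359 of them higher. The departure had a median of 1.08 over the members. With the block it passed for 5 members (5.46% of all genes were called higher). They were Stat2 (1.40 ± 0.35, adjusted p = 0.0264), Ddx58 (0.86 ± 0.22, adjusted p = 0.0292), Irf1 (0.70 ± 0.20, adjusted p = 0.0401), Irf9 (0.96 ± 0.29, adjusted p = 0.0462) and Parp14 (1.72 ± 0.52, adjusted p = 0.0475). For these genes the combination exceeded the sum of the single changes.

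The lines differed in the combination. The median change of the members from DMSO was 2.72 in A1471, 1.45 in A1005 and 0.37 in A1129, in log2 CPM with 1 library per line. At least 2-fold higher were 34 members in A1471 (16.3% of all genes), 28 in A1005 (10.2%) and 11 in A1129 (15.7%), and at least 2-fold lower were 0, 0 and 6 (13.4% of all genes in A1129). In A1129 the members with the largest changes included Parp14 (2.76), Xaf1 (2.39), Stat2 (2.18), Ifit2 (2.06) and Ddx58 (1.82). The share of members at least 2-fold lower there, 15.4%, was near that of all genes. Members lower with the combination in A1129 included Ifitm3, read often (4591 counts with DMSO and 2075 with the combination), and others read rarely in that line. Ifi44 had 22 counts with DMSO and 1 with the combination, Oas3 22 and 4, Usp18 18 and 5, and Oasl1 22 and 5. Mx2, an Mx GTPase, had 8 counts with DMSO and 1 with the combination there, against 4 and 28 in A1005 and 0 and 40 in A1471. Zbp1 had 23 and 14 counts in A1129, 49 and 280 in A1005 and 3 and 94 in A1471. The 6 members whose exact interval lay below DMSO in A1129 were Oas3, Oasl1, Mx2, Ifitm3, Ifi44 and Usp18 (35.6% of all genes tested lay below), while 17 lay above (37.2% of all genes). In A1005 36 members lay above (32.8% of all genes) and in A1471 37 (35.2%). The plot of levels by library shows members of both kinds.

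**Figure D4:**
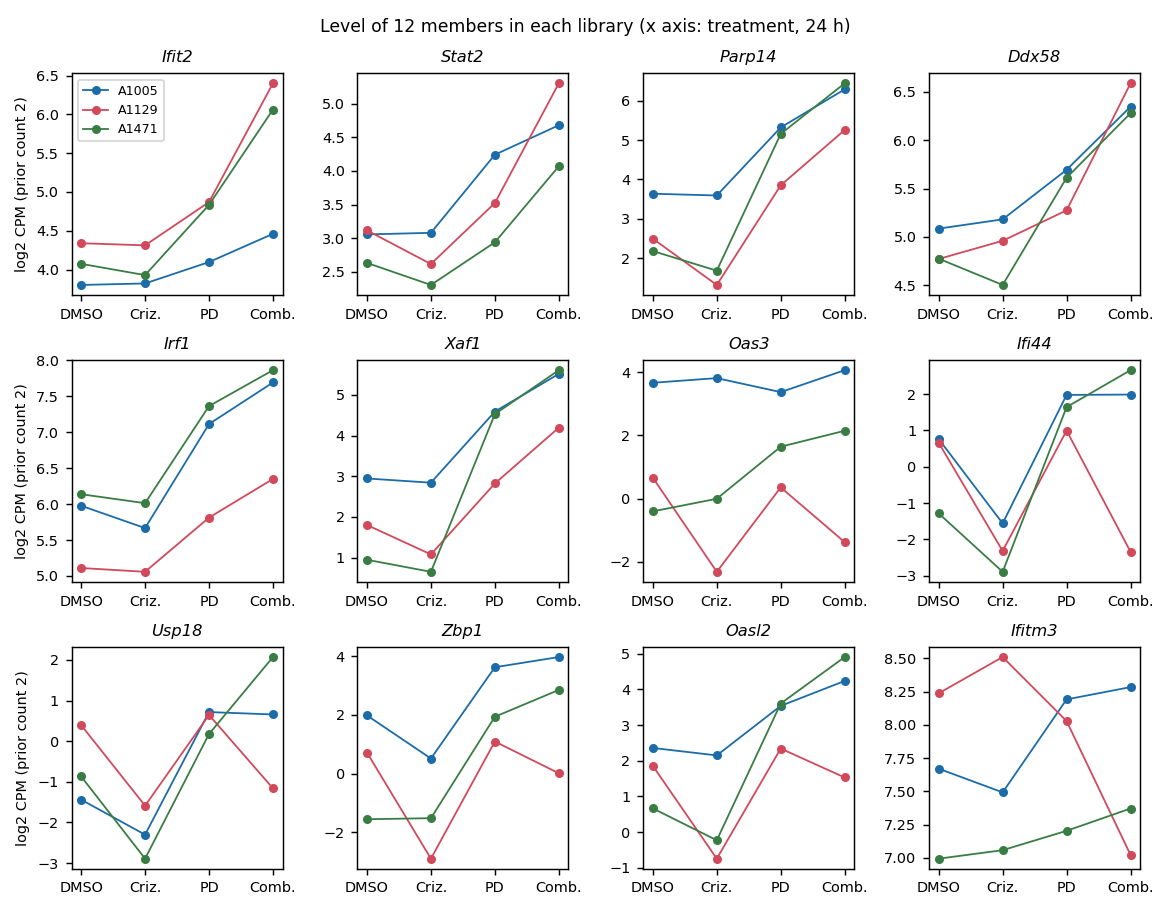
Level of 12 members in each of the 12 libraries, in log2 CPM with a prior count of 2 (y axis, own scale per panel), by treatment (x axis), with 1 point per library and a line per cell line. Ifit2, Stat2, Parp14, Ddx58, Irf1 and Xaf1 were highest with the combination in all 3 lines, and Oas3, Ifi44, Usp18, Zbp1, Oasl2 and Ifitm3 were below DMSO in A1129.

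Interferon genes themselves were almost unread. Of 21 interferon genes, 7 had any count, none had more than 1 in a library, and they held 10 counts in total over the 12 libraries. The interferon beta gene Ifnb1 had 1 count, in the A1005 combination library. A count of 0 allows up to 3 counts, or 0.167 to 0.234 CPM per library, so interferon transcripts were not detectable above that depth. The receptor chain Ifnar1 rose with the combination (0.80 ± 0.16, adjusted p = 0.0107 by edgeR), with 93.0, 69.0 and 70.5 CPM with DMSO, 91.0, 75.8 and 67.2 with Crizotinib, 101, 83.3 and 87.9 with PD173074 and 142, 130 and 133 with the combination. So did Ifngr2, a chain of the interferon gamma receptor (1.33 ± 0.21, adjusted p = 0.00313), with 43.7, 38.6 and 43.1 CPM with DMSO and 94.9, 95.3 and 125 with the combination. Of 8 receptors and kinases tested, 2 rose unpaired (6.10% of all genes) and 7 with the block (28.6% of all genes), and Jak1 was near level (0.05 ± 0.33). Ifnlr1, the lambda receptor, had 3 to 18 counts in A1005 and 0 in the other lines.

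Of 15 relay and other factors tested, 0 rose and 2 fell unpaired, where 6.10% of all genes rose and 8.28% fell. With the block 7 rose and 3 fell, where 28.6% of all genes rose and 26.2% fell. Irf8, a factor of myeloid cells, fell by 2.96 on the log2 scale (SE 0.39, adjusted p = 0.00137), with 366, 567 and 402 counts in the DMSO libraries, 497, 643 and 416 with Crizotinib, 190, 319 and 139 with PD173074 and 102, 57 and 36 with the combination. Socs1, an inhibitor of Jak kinases that interferon normally induces, fell by 1.30 (SE 0.39, adjusted p = 0.0495), with 125, 186 and 172 counts with DMSO, 172, 113 and 156 with Crizotinib, 205, 163 and 223 with PD173074 and 125, 35 and 61 with the combination. Irf3 (-0.22 ± 0.36) and Socs3 (0.46 ± 1.21) passed in neither fit. Of 30 further interferon-stimulated genes tested, 2 rose unpaired (Nmi, 1.87 ± 0.53, adjusted p = 0.0424, and Parp12, 1.33 ± 0.37, adjusted p = 0.0400). Slfn9 fell by 1.74 (SE 0.29, adjusted p = 0.00437). Unpaired, 6.10% of all genes rose, a share near that of these genes, and 8.28% fell. With the block 17 rose and 2 fell, where 28.6% of all genes rose and 26.2% fell. Their median change was 0.98. The ERK target genes, which follow receptor tyrosine kinase signalling, were listed as a check of the treatment. Spry2, Spry4, Dusp6, Etv4 and Etv5 all fell with the combination, with log2 fold changes from -2.28 to -5.98.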

How the data were processed

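Total RNA of 12 tumoursphere libraries was sequenced on a NextSeq500. According to the submitters' processing notes, bcl2fastq, STAR and HTSeq were used with build mm10, and the annotation release and strand setting are not given in the sources used here. The authors deposited raw counts, whole numbers of reads per gene. Groups came from the labelled treatment and pairs from the labelled cell line, whose libraries deviated together from the treatment means (mean r 0.871 over 18 same-line pairs, -0.42 over 36 others).

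From these counts, genes were filtered with filterByExpr (minimum count 10, total 15), scaled by TMM and tested with edgeR 4.0.16 (R 4.3.3) in one unpaired fit of all 12 libraries, as the study's methods state an unpaired analysis, with Benjamini-Hochberg adjustment over 13836 genes at 0.05. SE is the log2 fold change divided by the square root of F. Fits with the line as a block, DESeq2 1.42.0 and limma 3.58.1 (voom) were alternatives. Changes per line used log2 CPM with a prior count of 2. Ratios of 2 libraries have exact (Clopper-Pearson) 95% intervals. Gene lengths came from GENCODE M21 (GRCm38). The tests were checked on simulated data. Python 3.11.15 made tables and plots.

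The members and gene lists were chosen with earlier results of these data known. Of the members, those with the 8 largest or 3 smallest changes in the combination, or called unpaired in any comparison, are described by library, and others were named after their values were seen. One listed gene, Mb21d1, did not match a symbol. One gene of the pathway lists is not reported here by name.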

Additional observations from a re-analysis of the deposited data

Results flagged for a closer look

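For 3 members the change from DMSO with the combination was at least 2-fold in opposite directions in different lines, with 10 or more counts in 1 of the 2 libraries of each line. With 1 library per line and treatment this difference between lines was not tested. In log2 CPM with a prior count of 2, the difference for Ifi44 was -3.00 in A1129, 1.23 in A1005 and 3.94 in A1471. Oas3 differed by 2.55 in A1471 and -2.04 in A1129. Usp18 differed by -1.56 in A1129, 2.10 in A1005 and 2.94 in A1471.

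For 5 members the effect of one inhibitor differed with and without the other, by the test of the departure from additivity with the cell line as a block. The departures were 1.72 for Parp14, 1.40 for Stat2, 0.96 for Irf9, 0.86 for Ddx58 and 0.70 for Irf1 on the log2 scale, and none passed in the unpaired fit.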

How the results depend on the processing

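The number of members called depended on the cell line as a replicate block, the tool and the lines included. The share of all genes called higher moved too. From unpaired to blocked edgeR it went from 6.10% to 28.6% for the combination against DMSO, from 5.40% to 27.4% against Crizotinib and from 0.838% to 19.6% against PD173074. It went from 0% to 1.62% for PD173074 against DMSO and from 0.00723% to 5.46% for the departure from additivity. For the combination against DMSO, 10 members were called higher unpaired, 28 with the block (1 lower), 18 with DESeq2, 26 with DESeq2 and 28 (1 lower) with limma-voom and the block, and 2 with only the groups compared. Leaving out a line gave 0 to 31, with 0 unpaired without A1471, 2 without A1129 and 16 with the block without A1471. Against Crizotinib, 17 became 32 with the block by edgeR, DESeq2 or limma-voom, 11 with limma-voom or no filter, 4 with only the groups compared and 0 to 33 without a line. Against PD173074, 1 became 9 with the block, 2 with DESeq2, 13 and 11 with DESeq2 and limma-voom with the block, 0 with no filter, with only the groups compared or with a log2 fold change of at least 1.5, and 0 to 7 without a line. For PD173074 against DMSO, 0 became 6 with the block, 10 and 8 with DESeq2 and limma-voom with the block, and 0 to 2 without a line. The departure from additivity went from 0 to 5 with the block, 9 and 5 with DESeq2 and limma-voom with the block, and 0 to 3 without a line. The blocked DESeq2 and limma-voom fits were chosen after the data were seen. For those fits, the fits without a line and the fits of only the groups compared, no share of all genes is given. Their counts of members therefore cannot be set against all genes. The median change of 1.65 in the combination was 1.01 to 2.11 without a line, the lowest with the block without A1471. The median departure of 1.08 was 0.93 to 1.62 without a line, the highest without A1005, and the Crizotinib median of -0.20 was -0.74 to -0.15, the lowest without A1005. The stricter STAT site TTCCNGGAA was in 6.9% of member promoters against 27.6%.

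Signs turned for 4 members in the combination. Ifitm3 was 0.024 with the block and 0.053 with DESeq2 and the block, and -0.52 to 0.53 without a line (above 0 without A1129). Without a line, Dhx58 was -0.14 to 1.11, Ifi44 -0.13 to 2.55 and Oas3 -0.32 to 1.15, with the lowest values without A1471 (for Ifi44 and Oas3 with the block). With PD173074, Oas3 was 0.30, 0.26 and 0.12 with the block by edgeR, DESeq2 and limma-voom, 0.65 with limma-voom, and -0.36 to 1.001 without a line. Oas1g was 0.57 with limma-voom, and without a line Ifitm3 was -0.067 to 0.42 (below 0 without A1005) and Mx1 -0.22 to 2.36 (below 0 without A1471). The other values of single members in both comparisons kept their direction under the alternatives run. Depth and 1 library per line limit the rarely read members, and the cause of these shifts was not tested.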
